A study of Homo sapiens with 28 samples.

Results

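The 357 peaks described here were open in untreated Kuramochi cells, stayed open in cells exposed to olaparib for 9 days, and were low in every one of 7 populations adapted to the drug. They were picked from 105048 consensus ATAC-seq peaks, of which they are 0.340%. A peak was taken when its mean in untreated cells was at least 3 CPM (the count as a share of the library's total over all peaks, scaled to 1000000), when the highest of the 7 adapted means was at most the untreated mean divided by 2.5, and when both exposed means were at least the untreated mean divided by 1.5. These values chose the peaks, so the levels in adapted, exposed and untreated cells are given as a description with no test. They are called closed peaks below.

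Kuramochi is an established ovarian cancer cell line, and every sample carries the label BRCA2-mutant. The adapted populations, T5 to T320, were kept under 5, 10, 20, 40, 80, 160 or 320 uM olaparib and were sorted for low CD24 and high CD44, both surface markers. P10 and P320 are drug-naive cells given 10 or 320 uM olaparib for 9 days, with no sort named. C is the untreated population, sorted on the same markers with a profile that is not given. Each group has 2 libraries, and the labels do not say whether these came from separate cultures, so the errors below measure only the spread between libraries. The study compared a series of adapted states with brief exposure. Adaptation, length of drug exposure and the sort cannot be told apart between the T and P groups. Whether one adapted population was derived from the one before is not given, and 8 further samples of T320 cells with or without drug are not analysed here.

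ATAC-seq uses a transposase that inserts sequencing adapters into accessible DNA, so a peak marks a promoter, an enhancer or another stretch not covered by nucleosomes. Olaparib inhibits PARP enzymes, which mark DNA breaks for repair, and cells without working BRCA2 depend on them because homologous recombination is impaired. Peaks away from gene starts often lie in enhancers, whose opening differs between cell states more than that of promoters. A nearby gene is named only to place a peak, since the count table does not say which gene a distal peak acts on.

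The replicate 1 libraries of the adapted populations and C held 9627970 to 15526256 counts and their replicate 2 libraries 19092182 to 28547221, while the 4 exposed libraries held 22184883 to 29699950. Promoter peaks were found for 11 of 13 epithelial markers, all but KRT7 and GRHL2, and for 9 of 10 ovarian markers. The summed epithelial promoter signal was 157 to 246 CPM in the 14 adapted libraries and 322 to 338 CPM in the 4 exposed libraries, against 274 and 239 CPM in the C libraries. Summed fibroblast or mesenchymal marker promoters were at 89.5 to 113 CPM in adapted libraries and 84.3 to 96.0 CPM in exposed libraries, against 58.7 and 68.5 CPM in C. Ovarian and Mullerian marker promoters summed to 146 to 253 CPM in adapted libraries and 350 to 376 CPM in exposed libraries, against 304 and 360 CPM in C. Neural marker promoters summed to 63.7 to 118 CPM in adapted libraries and 60.5 to 64.9 CPM in exposed libraries, against 47.0 and 49.8 CPM in C. No closed peak lay at a marker of any of the 6 cell type lists, and the part of these shifts in the closed peaks was not tested.

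Gene starts were few among the closed peaks. Of the 357, 8 (2.24%) lay within 1 kb of a protein-coding gene start in the RefSeq promoter table, against 11.5% of all peaks and 14.5% of peaks with at least 3 CPM in C. For 4161 of 19974 genes that table gives no start, and a further 6 closed peaks lay within 1 kb of either end of such a gene, which may be its start or its end. Both kinds together made up 14 (3.92%), against 14.4% of all peaks and 17.8% of peaks with at least 3 CPM in C. Another 188 (52.7%) lay inside gene bodies and 155 (43.4%) between genes, against 43.3% and 42.4% of all peaks. The median width was 1128 bp, against 1119 bp over all peaks. A protein-coding gene lay within 50 kb of 282 closed peaks (79.0%), close to the 78.6% of all peaks.

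Promoter sequences are shown for the 4 closed peaks at starts in the promoter table that cover the whole stretch from 250 bases before to 50 bases after the start and have the highest C level among those, because they show which core promoters were closed. Peaks at genes without a start in that table were not considered, TGM1, WASF2 and KIFC2 with C means of 23.3, 15.4 and 14.4 CPM among them. They come from RefSeq (GRCh38.p14) and run 5′ to 3′ on the gene's strand, and capitals mark matches to any of 12 short motifs searched on both strands. TAS1R3 encodes a subunit of the sweet and umami taste receptors (chr1:1331030-1331329, plus strand). HKDC1 encodes a hexokinase (chr10:69220082-69220381, plus strand). BSCL2 encodes seipin, which shapes lipid droplets (chr11:62709488-62709787, minus strand). PLIN2 encodes perilipin 2, a lipid droplet coat protein (chr9:19127443-19127742, minus strand).
TAS1R3: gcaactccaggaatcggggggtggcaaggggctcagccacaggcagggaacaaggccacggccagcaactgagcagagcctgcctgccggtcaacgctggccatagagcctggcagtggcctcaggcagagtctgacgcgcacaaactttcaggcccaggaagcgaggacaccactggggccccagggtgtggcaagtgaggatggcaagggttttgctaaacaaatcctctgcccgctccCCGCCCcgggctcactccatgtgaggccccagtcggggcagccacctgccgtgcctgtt
HKDC1: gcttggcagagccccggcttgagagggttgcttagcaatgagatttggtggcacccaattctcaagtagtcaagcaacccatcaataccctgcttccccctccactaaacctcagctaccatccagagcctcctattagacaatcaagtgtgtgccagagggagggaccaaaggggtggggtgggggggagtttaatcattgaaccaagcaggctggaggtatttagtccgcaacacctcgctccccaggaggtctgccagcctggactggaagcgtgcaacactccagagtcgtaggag
BSCL2: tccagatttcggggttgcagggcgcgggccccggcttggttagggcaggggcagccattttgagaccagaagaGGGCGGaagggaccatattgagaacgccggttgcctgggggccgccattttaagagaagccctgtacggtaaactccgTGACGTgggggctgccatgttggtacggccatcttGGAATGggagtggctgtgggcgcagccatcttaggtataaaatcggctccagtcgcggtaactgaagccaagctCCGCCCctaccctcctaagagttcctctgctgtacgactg
PLIN2: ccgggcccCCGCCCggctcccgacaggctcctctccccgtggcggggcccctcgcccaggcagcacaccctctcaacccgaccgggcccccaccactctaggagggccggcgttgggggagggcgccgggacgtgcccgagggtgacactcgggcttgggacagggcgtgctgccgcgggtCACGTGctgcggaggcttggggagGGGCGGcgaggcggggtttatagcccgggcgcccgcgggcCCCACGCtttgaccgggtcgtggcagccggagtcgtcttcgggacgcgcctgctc

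The capitals in TAS1R3 and the first capitals in PLIN2 are the reverse complement of the KLF and SP motif GGGCGG, which also stands in BSCL2. PLIN2 further holds the E-box CACGTG and the EGR motif GCGTGGG, read on the other strand. BSCL2 holds the CRE motif TGACGT and the TEAD motif CATTCC on the other strand. HKDC1 holds none of the 12. The promoter table covered 9 starts within 1 kb of a closed peak, belonging to 8 genes. GGGCGG was present in 3 of the 9 (33.3%), against 45.0% of 35116 promoters of the same length. CATTCC was present in 2 (22.2%, against 14.03%), and the SOX motif ACAAAG, the GATA motif AGATAA, the MYC-type E-box CACGTG, the CRE motif TGACGT and the EGR motif GCGTGGG were each present in 1 (11.1%, against 16.1%, 10.3%, 7.26%, 7.98% and 6.98%). The AP-1 motif TGANTCA, the ETS motif GGAAGT, the homeobox motif TAATTA, the forkhead motif TGTTTAC and the E-box CAGCTG were in none of the 9, against 7.71%, 22.8%, 4.84%, 3.42% and 17.9% of all promoters. The sequences of the distal closed peaks were not used here.

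Those 4 promoters differed in what the 9-day exposure left. TAS1R3 had 4.83 to 9.88 CPM (median 6.75) in the 14 adapted libraries, 37.5 and 39.0 CPM in P10 and 44.7 and 46.1 CPM in P320, against 23.6 and 21.1 CPM in C. Both exposed groups stood above C at this start, and all adapted libraries below it. At PLIN2 the level was 2.4998 to 6.45 CPM (median 4.83) in adapted libraries, 19.2 and 17.4 CPM in P10 and 18.9 and 17.7 CPM in P320, against 13.8 and 13.997 CPM in C. BSCL2, whose start shares the peak with GNG3, had 1.10 to 7.27 CPM (median 3.29) in adapted libraries, 10.7 and 13.0 CPM in P10 and 12.9 and 12.8 CPM in P320, against 15.4 and 14.6 CPM in C. HKDC1 lay at 2.67 to 6.44 CPM (median 4.09), 11.9 and 12.6 CPM in P10 and 15.2 and 13.2 CPM in P320, against 14.5 and 17.5 CPM in C. At BSCL2 and HKDC1 the means of both exposed groups lay below that of C.

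Among the 10 peaks with the highest C level at a gene start, or at either end of a gene without one, were 6 others. For TGM1, WASF2 and KIFC2 the start is not in the table, so these peaks may lie at the start or at the end of the gene. The peak at TGM1, which encodes a transglutaminase of the skin barrier, had 2.37 to 10.5 CPM in adapted libraries, 30.9 and 27.5 CPM in P10 and 19.6 and 19.5 CPM in P320, against 27.5 and 19.1 CPM in C. WASF2, a regulator of actin branching, had 1.91 to 7.08 CPM in adapted libraries, 12.2 and 12.1 CPM in P10 and 18.3 and 18.9 CPM in P320, against 15.7 and 15.2 CPM in C. The peak at KIFC2, a kinesin gene beside FOXH1, had 1.36 to 6.77 CPM in adapted libraries, 14.8 and 13.99 CPM in P10 and 16.9 and 15.5 CPM in P320, against 12.4 and 16.3 CPM in C. ARHGEF7, a guanine nucleotide exchange factor gene, had 1.43 to 4.31 CPM, 8.29 and 10.3 CPM in P10 and 14.5 and 14.5 CPM in P320, against 13.7 and 11.5 CPM in C. The start of LYG2, a lysozyme family gene, had 0.957 to 3.65 CPM, 8.02 and 9.85 CPM in P10 and 14.4 and 13.9 CPM in P320, against 9.08 and 10.7 CPM in C. ECHDC2, of the enoyl-CoA hydratase family, was lowest in C of the 10, with 0.377 to 2.31 CPM in adapted libraries, 7.12 and 8.87 CPM in P10 and 9.53 and 9.13 CPM in P320, against 6.35 and 7.88 CPM in C. In none of these 6 did an adapted library reach a C library.

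Across all 357 closed peaks the signal formed a step. The median of the group means was 2.82 CPM at 5 uM, 2.16 at 10, 2.04 at 20, 2.23 at 40, 1.96 at 80, 1.94 at 160 and 2.20 CPM at 320 uM. It was 9.01 CPM in P10 and 9.37 CPM in P320, against 9.35 CPM in C, where the closed peaks ranged from 3.09 to 123 CPM. Summed over the 357 peaks, the adapted libraries held 649 to 1508 CPM and the exposed libraries 4382 to 4541 CPM, against 4658 and 4394 CPM in C. Both C libraries lay above all 14 adapted libraries in 354 closed peaks, where 12.5% of all peaks do so. All 4 exposed libraries lay above all 14 adapted ones in 356, against 9.63% of all peaks. These counts follow from the rule.

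**Figure D1:**
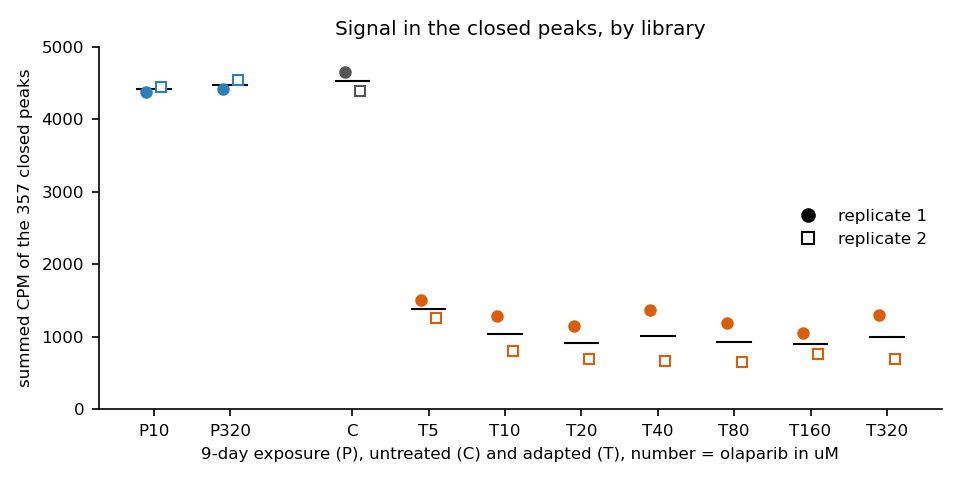
Summed CPM of the 357 closed peaks in each of the 20 libraries, with exposed groups (P), untreated cells (C) and adapted populations in order of dose (T); circles are replicate 1, squares replicate 2, and bars the group means. The 14 adapted libraries sit between 649 and 1508 CPM, below the 4382 to 4658 CPM of all exposed and untreated libraries, and replicate 1 is above replicate 2 in each adapted population.

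The median log2 ratio to C over the closed peaks was -1.70 at 5 uM, -2.11 at 10, -2.19 at 20, -2.05 at 40, -2.23 at 80, -2.29 at 160 and -2.12 at 320 uM. In the exposed cells it was -0.16 in P10 and -0.10 in P320. Over all peaks, with 0.5 CPM added to both means, the medians lay between -0.03 and 0.01 in the adapted populations and were -0.08 in P10 and -0.18 in P320. The C mean was at least 4 times the T5 mean in 75 closed peaks, the T10 mean in 204, the T160 mean in 263 and the T320 mean in 209. In 34 peaks it was at least 4 times every adapted mean. The exposed means were not all below C: P10 was above C in 122 closed peaks, P320 in 138, and both in 61.

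The 2 replicates of the adapted populations stood apart in the closed peaks. The library median was 2.36 to 3.16 CPM in the 7 replicate 1 libraries and 1.24 to 2.49 CPM in the 7 replicate 2 libraries, and a replicate 2 library was the lowest of the 14 in 333 closed peaks. Replicate 1 exceeded replicate 2 in 279 of the 357 in T5 and in 339 in T40, against 54.9% and 60.3% of all peaks. The replicate 1 libraries are also the shallower ones, and the part of depth in this difference was not tested. The 4 exposed libraries had medians of 8.79 to 9.36 CPM.

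Applied to the replicate 1 columns alone, the rule chose 166 peaks, of which 87 (52.4%) met it again in replicate 2, against 0.557% of all peaks. Applied to replicate 2 alone it chose 585, of which 87 (14.9%) met it in replicate 1, against 0.158% of all peaks. All 7 adapted values were below C in the other replicate in 165 (99.4%) of the first set and 559 (95.6%) of the second, against 25.9% and 24.5% of all peaks. In each replicate the 7 adapted values were set against the same C library, and all peaks are not a matched baseline. These shares are given as a description. The direction was the same in the other replicate for most of the chosen peaks, and the size of 2.5 times was not met for many. The C libraries mattered as well: 283 peaks met the rule without C replicate 1 and 429 without C replicate 2.

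At the edges of the rule, the closed peaks with the lowest C level were at 3.09, 3.11 and 3.16 CPM, and those that only failed on this limit were at 2.96, 2.95 and 2.88 CPM. A peak in KCNC4, with C at 2.504 times the highest adapted mean, was inside, and one in SMYD3, a methyltransferase gene, at 2.498 times (4.84 CPM in its highest adapted population, against 12.1 CPM in C) was just outside. On the exposure limit, a peak in CASP8, which encodes the apoptosis initiator caspase 8, was inside with C at 1.493 times the lower exposed mean, and one in VAV3, another exchange factor gene, was outside at 1.503 times. The C mean was 2.89 times the highest adapted mean in the median closed peak and 7.12 times at most, so many lie near the limit.

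Of the 10 strongest closed peaks in untreated cells, 7 lay in the first 50 Mb of chromosome 1. The highest was a 4009 bp wide peak inside AGRN, which encodes the matrix proteoglycan agrin (chr1:1023642-1027651). It had 16.8 to 43.8 CPM (median 24.4) in the 14 adapted libraries, 92.1 and 88.7 CPM in P10 and 87.1 and 94.1 CPM in P320, against 116 and 129 CPM in C. The adapted libraries were all below the others, and T5 was the highest adapted population, as in each of the 10 strongest peaks except that in ZHX2. A peak in UBE4B, a ubiquitin chain ligase gene (chr1:10058730), had 1.10 to 13.9 CPM (median 3.51), 38.4 and 45.9 CPM in P10 and 51.9 and 50.1 CPM in P320, against 51.3 and 49.8 CPM in C. One in H6PD, which encodes an enzyme that makes NADPH in the endoplasmic reticulum, had 1.99 to 10.9 CPM (median 5.49), 38.1 and 38.8 CPM in P10 and 37.2 and 39.4 CPM in P320, against 47.1 and 51.3 CPM in C. The H6PD peak was 5.66 times as high in C as in its highest adapted population.

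FOSL2 encodes FRA2, a subunit of the AP-1 transcription factor, and a closed peak lay 18941 bp from it (chr2:28436258-28438390). Its mean in the adapted populations was 16.6 ± 0.73 CPM at 5 uM, 8.66 ± 1.09 at 10, 4.67 ± 3.13 at 20, 3.18 ± 0.38 at 40, 3.65 ± 1.84 at 80, 3.75 ± 0.56 at 160 and 3.72 ± 1.13 at 320 uM (SD, n = 2 each). The exposed cells had 34.8 ± 0.77 CPM in P10 and 39.7 ± 1.13 in P320, against 47.1 ± 5.46 CPM in C (SD, n = 2 each). The signal was partly kept in T5 and near its lowest level by T40. ZHX2, a zinc finger and homeobox repressor gene, held a closed peak with 1.91 to 11.3 CPM (median 6.29) in adapted libraries, 34.6 and 34.6 CPM in P10 and 46.8 and 44.1 CPM in P320, against 49.6 and 42.5 CPM in C. The remaining strong peaks lay in AHDC1 and FHAD1, beside GPR157, and at chr1:4602204-4604362 and chr2:207257729-207259385 with no coding gene within 50 kb, with C means of 43.2 to 60.6 CPM and highest adapted means of 11.2 to 22.8 CPM.

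**Figure D2:**
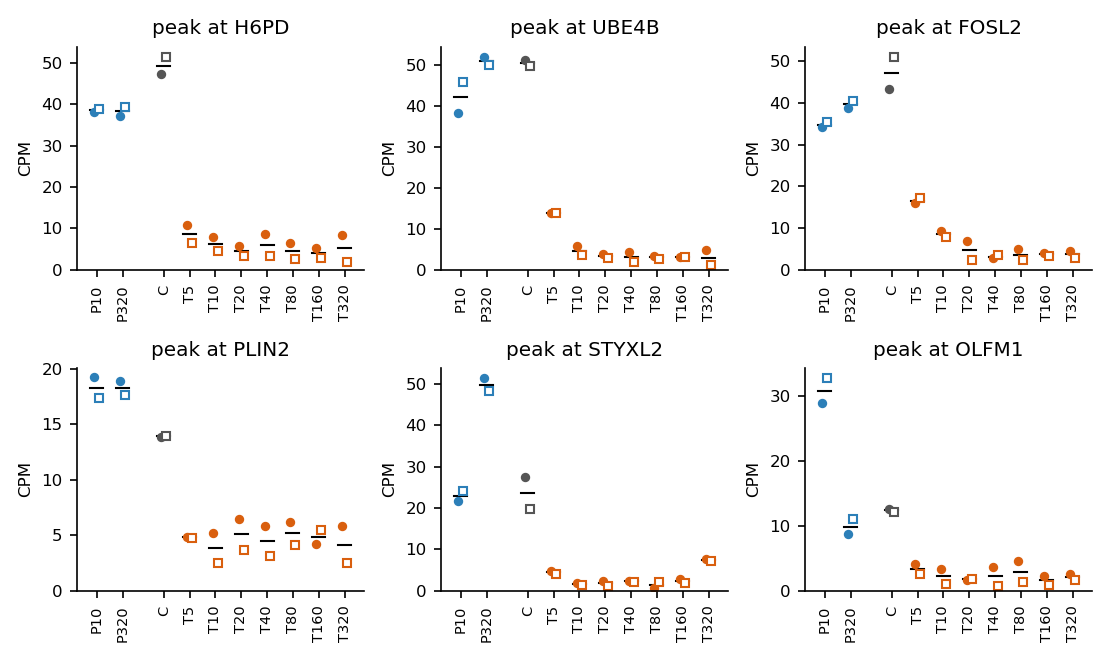
CPM of 6 closed peaks in all 20 libraries, named after the nearest gene, with exposed groups (P), untreated cells (C) and adapted populations by dose (T); circles are replicate 1, squares replicate 2, bars the group means. The FOSL2 and UBE4B peaks hold 16.6 and 13.9 CPM in T5 and at most 8.66 and 4.63 CPM in higher adapted populations, the PLIN2 start is above C in the exposed libraries, and the peaks at STYXL2 and OLFM1 differ between P320 and P10.

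The deepest closure, among peaks with at least 10 CPM in C, was in LRRC7, which encodes the postsynaptic protein densin. This peak had 0.957 to 4.06 CPM (median 2.64) in adapted libraries, 17.2 and 17.1 CPM in P10 and 30.1 and 34.1 CPM in P320, against 16.3 and 27.5 CPM in C, a ratio of 6.48 between C and the highest adapted mean. A peak 12052 bp from PRKAR1B, a regulatory subunit of protein kinase A, had a ratio of 6.38 with 0.717 to 4.52 CPM in adapted libraries, against 21.0 and 17.9 CPM in C. In SPSB1 the peak had 1.02 to 5.08 CPM in adapted libraries, 16.9 and 17.1 CPM in P10 and 17.9 and 19.2 CPM in P320, against 22.7 and 15.1 CPM in C. Other peaks of this set lay in MAD1L1, a spindle checkpoint gene, at a ratio of 4.77, in RIGI, which encodes a sensor of viral RNA, at 4.68, in DFFB, which encodes the nuclease that cuts DNA in apoptosis, at 4.45, and near GPR15LG, which encodes a ligand of GPR15, at 4.22. RIGI had 0.678 to 3.53 CPM in adapted libraries, 10.8 and 11.9 CPM in P10 and 15.1 and 13.3 CPM in P320, against 9.96 and 15.4 CPM in C. MAD1L1 was lower in P320 than in the other unadapted cells, with 0.508 to 2.58 CPM in adapted libraries, 11.7 and 11.2 CPM in P10 and 6.73 and 8.38 CPM in P320, against 10.9 and 10.6 CPM in C. The DFFB peak stood above C in the exposed cells, with 35.6 and 36.8 CPM in P10 and 30.6 and 34.6 CPM in P320, against 28.2 and 22.7 CPM in C, while its adapted libraries lay between 1.34 and 7.02 CPM.

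Of the closed peaks, 299 stood alone, with no other within 100 kb, and the rest formed 21 pairs, 2 groups of 3, 1 of 4 and 1 of 6. The group of 6 lay among 35 peaks in 325361 bp around GPR157, an orphan receptor gene, H6PD and SPSB1, which encodes an adaptor of a ubiquitin ligase (chr1:9114614-9439975). Summed over the 6, the adapted populations had 48.6 CPM at 5 uM, 36.1 at 10, 24.4 at 20, 26.7 at 40, 27.8 at 80, 31.9 at 160 and 28.9 CPM at 320 uM. It was 192 CPM in P10 and 161 CPM in P320, against 177 CPM in C. Within the group, the ratio of C to the highest adapted mean ran from 2.53 in the peak 33305 bp from GPR157 to 5.66 in H6PD. The group of 4 lay at AJAP1, an adherens junction protein gene, with 18.1 CPM in T320, 95.2 CPM in P10 and 82.2 CPM in P320, against 99.7 CPM in C. The group of 3 at CD9, a tetraspanin gene, with 1 peak at an annotated start inside the gene, summed to 4.53 CPM in T320, 28.4 CPM in P10 and 20.9 CPM in P320, against 20.0 CPM in C. GPR157, AJAP1, CD9 and ATP11A, a phospholipid flippase gene, were each the nearest gene of 3 closed peaks, and 23 of 255 genes had 2 or more.

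Closed peaks were dense on chromosome 1, which held 108 of them (30.3%) against 10.6% of all peaks. Its first 50 Mb held 57, or 17.4 per 1000 peaks, against 3.40 per 1000 in the whole table. Chromosome 9 held 33 (7.09 per 1000), chromosome 13 held 17 (5.50 per 1000), and chromosome 20 none of 2990 peaks. Of the 1408 peaks that were closed in every adapted population but fell below the limit in P10 or P320, 22.02% lay on chromosome 1 and 1.70% at a gene start or an end used in its place, so both features were shared with peaks that did not stay open under brief exposure.

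The surroundings of the closed peaks were also lower. The other peaks in the first 50 Mb of chromosome 1 had a median log2 ratio to C of -0.38 in T5 and -0.72 in T320, and of 0.03 in P10 and -0.16 in P320. Of the closed peaks, 353 had other peaks within 100 kb, with a median of 12. The median of those neighbours was -0.19 at 5 uM, -0.40 at 10, -0.52 at 20 and -0.49 at 320 uM, and -0.05 in P10 and -0.12 in P320, where the closed peaks themselves were at -1.53, -1.86, -1.94, -1.88, -0.14 and -0.09 on the same scale with 0.5 CPM added. In T320 a closed peak was lower than its neighbours' median in 350 of 353 cases and at least 1 log2 unit lower in 264. That the closed peaks were lower than their neighbours follows from the rule, which chose them for low adapted levels, and is given as a description. The neighbours, which the rule did not choose, were themselves lower than in C in the adapted populations. Neighbouring peaks are not independent of each other.

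**Figure D3:**
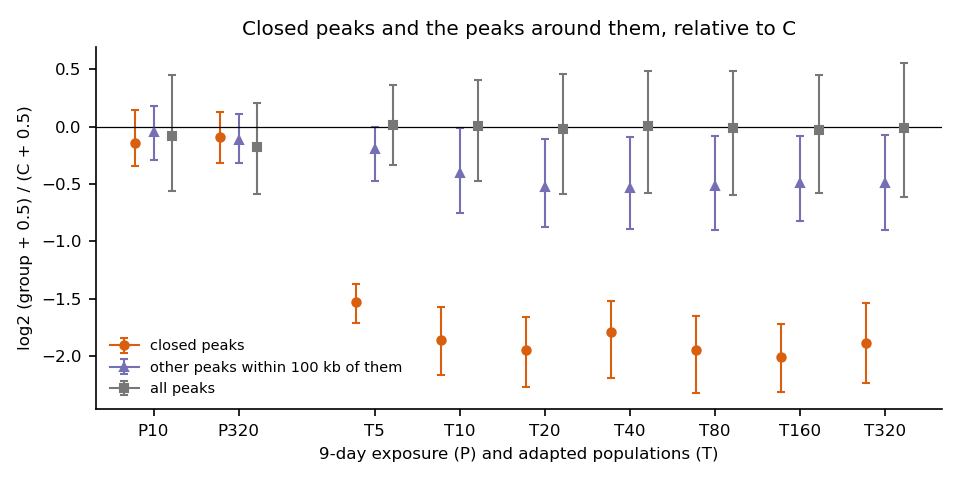
Median and quartiles of the log2 ratio to C, with 0.5 CPM added to both means, for the 357 closed peaks (circles), for the median of the other peaks within 100 kb of each (triangles, n = 353) and for all 105048 peaks (squares), in exposed groups (P) and adapted populations by dose (T). Closed peaks lie between -1.53 and -2.01 in the adapted populations, their neighbours between -0.19 and -0.53, and all peaks near 0.

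When the median log2 ratio of each 5 Mb window was subtracted before the rule was applied, 376 peaks met it, and 189 of the 357 (52.9%) were among them. Chromosome 1 then held 10.6% of the chosen peaks, its share of all peaks, and 3.58 per 1000 peaks, the same as the whole table. Of the 108 closed peaks on chromosome 1, 23 still met the rule, and of the 33 on chromosome 9, 14 did. All 10 of the deepest closed peaks met it, as did those at UBE4B, FOSL2 and ZHX2. LRRC7, H6PD, SPSB1, DFFB and the peak at chr1:9123941 in GPR157 were among the deepest on chromosome 1. AGRN, AHDC1, FHAD1 and the AJAP1 group did not meet it. Neither did the strong peak 33305 bp from GPR157 nor that at chr1:9114614 in the same gene. Of the 4 promoters printed above, HKDC1 and BSCL2 met it and TAS1R3 and PLIN2 did not. Changes in DNA copy number and in chromatin over such windows cannot be told apart from these counts.

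**Figure D4:**
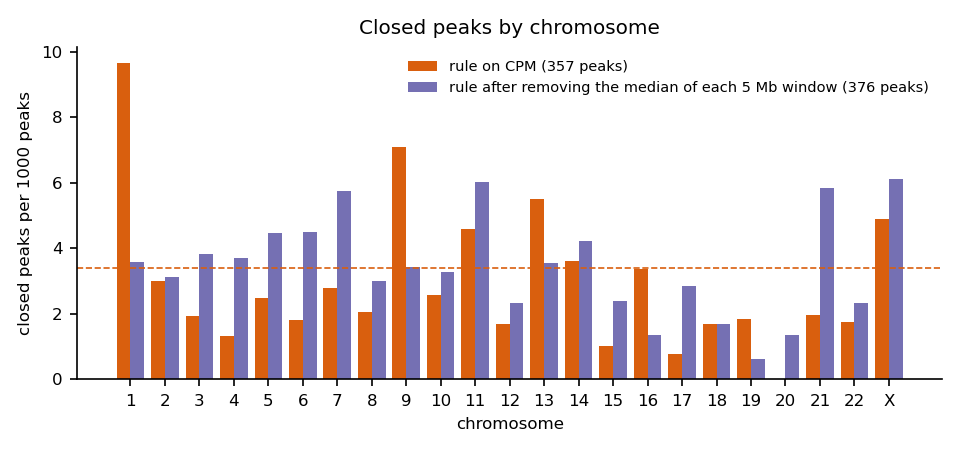
Closed peaks per 1000 peaks on each of 23 chromosomes, by the rule on CPM (left bars, 357 peaks) and by the same rule after subtracting the median log2 ratio of each 5 Mb window (right bars, 376 peaks); the dashed line is the 3.40 per 1000 of the whole table. Chromosome 1 stands at 9.66 and 3.58 per 1000, chromosome 9 at 7.09 and 3.44.

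Among the 12 gene lists used to place peaks, few genes had a closed peak near them. Of 133 peaks nearest to AP-1 and immediate early genes 1 was closed, that at FOSL2. The Wnt, TGF-beta and Notch list had 1 of 358, in NOTCH2, a Notch receptor gene, with 0.169 to 1.246 CPM in adapted libraries, 2.79 and 2.76 CPM in P10 and 2.29 and 2.58 CPM in P320, against 3.70 and 2.88 CPM in C. Ion channel and neuronal adhesion genes had 2 of 497, in the glutamate receptor gene GRIN2A and the phosphatase gene PTPRD. Drug efflux and detoxification genes had 1 of 137, in the transporter gene ABCC1, and inflammation genes 1 of 138, 25318 bp from the chemokine gene CCL20. The ABCC1 peak had 0.718 to 3.30 CPM in adapted libraries, 7.21 and 6.69 CPM in P10 and 7.04 and 6.23 CPM in P320, against 6.96 and 9.05 CPM in C. At CCL20 the level was 0.254 to 1.94 CPM in adapted libraries, 5.18 and 5.04 CPM in P10 and 5.42 and 5.37 CPM in P320, against 7.23 and 3.83 CPM in C. The Mullerian lineage (179 peaks), epithelial (137), mesenchymal (204), cell cycle and p53 (64), homologous recombination and PARP (151), receptor tyrosine kinase (364) and constitutive promoter (37) lists had none, where 0.340% of all peaks were closed. These counts are small on either side and show no list apart.

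The level within the adapted series and between the exposed groups was not set by the rule, although its limits bound it, and was tested over all peaks with edgeR's quasi-likelihood test (Benjamini-Hochberg adjusted p under 0.05 and at least 1 log2 unit). The first comparison set T10 against T5. Of the closed peaks, 7 were lower in T10 than in T5 (1.96% of the 357, with a background of 1.2% of all peaks) and 0 were higher (background 2.16%). At an unadjusted edgeR p under 0.05, 53 of the 357 were lower and 1 higher. Of all 105048 peaks, 20368 had such a p in either direction. They were not split by direction, so no excess of lower closed peaks can be read from these counts. DESeq2 called 14 closed peaks lower and 0 higher, against 2002 lower and 2596 higher of all peaks. The T10 mean was below the T5 mean in 282 closed peaks (79.0%), against 53.5% of all peaks, with a median log2 change of -0.31, against 0.02 over all peaks. T5 was the highest adapted population in 188 closed peaks, against 29.8% of all peaks. The rule used all 7 adapted means and chose peaks far below C, so all peaks are not a matched baseline here. These 2 orders and the median change are given as a description. Replicates of one number deviated together between adapted populations, and with the replicate number as a block 20 closed peaks were lower in T10 (5.60%, background 2.46%), the 7 above among them, and 0 were higher (background 3.05%). The size rests on single libraries: the median log2 change over the closed peaks was -0.18 without T5 replicate 1 and -0.42 without T5 replicate 2. Without T10 replicate 1 it was -0.72, and without T10 replicate 2 it was -0.02. Over all peaks these medians lay between -0.003 and 0.038.

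A closed peak 16464 bp from the olfactory receptor gene OR1L6 averaged 2.62 ± 0.50 CPM in T10 and 11.8 ± 1.57 CPM in T5 (SD, n = 2 each). Its log2 change was -2.13 (SE 0.39, edgeR adjusted p = 0.00388), with an adjusted p of 0.0873 without T10 replicate 2. The UBE4B peak averaged 4.63 ± 1.53 CPM in T10 and 13.9 ± 0.02 CPM in T5 (log2 change -1.57, SE 0.35, edgeR adjusted p = 0.0144), and that in FHAD1 6.12 ± 2.098 CPM in T10 and 15.3 ± 1.44 CPM in T5 (-1.30, SE 0.34, edgeR adjusted p = 0.0325). Both calls were lost without either T5 library or without T10 replicate 2, with edgeR adjusted p of 0.0508 to 0.208 for UBE4B and 0.122 to 0.309 for FHAD1. CORO2B, a coronin gene of the actin cytoskeleton, had 1.06 ± 0.43 CPM in T10 and 4.196 ± 1.08 CPM in T5, a log2 change of -1.97 (SE 0.43, edgeR adjusted p = 0.0125) that missed the threshold without either T5 library or without T10 replicate 2 (0.0689 to 0.209). A peak 7862 bp from NBPF26 had 0.25 ± 0.08 CPM in T10 and 7.07 ± 0.90 CPM in T5 (-4.84, SE 0.70, edgeR adjusted p = 0.00086). NBPF26 belongs to a family of near-identical copies on chromosome 1, so reads there may be shared between copies and the value is uncertain. The other 2 called peaks lay in STYXL2 and at chr2:207257729-207259385, and both lost their calls without any one of the 4 libraries (edgeR adjusted p of 0.0539 to 0.397).

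Along the 7 adapted doses, 10 closed peaks fell by at least 0.25 log2 units per doubling of the dose (2.80% of the 357, background 2.35%) and 0 rose (background 3.37%). At an unadjusted edgeR p under 0.05, 71 of the 357 fell and 1 rose. Of all 105048 peaks, 30366 had such a p in either direction. These were not split by direction either, so no excess of falling closed peaks can be read from them. DESeq2 called 11 closed peaks falling and 0 rising, against 2907 falling and 4024 rising of all peaks. The trend was fitted with edgeR to the 7 populations with their libraries summed, so the deeper replicate 2 libraries weigh more in it than in the means. The peak in MOB3B, a gene of the MOB kinase regulators, averaged 4.82 ± 0.28 CPM at 5 uM, 3.75 ± 0.57 at 10, 2.35 ± 0.81 at 20, 2.41 ± 1.44 at 40, 1.93 ± 0.83 at 80, 1.84 ± 0.33 at 160 and 0.94 ± 0.37 at 320 uM (SD, n = 2 each), a slope of -0.34 (SE 0.06, edgeR adjusted p = 0.00921). That in CADM1, a cell adhesion molecule gene, stood at 4.83 ± 0.54 CPM in T5, 1.60 ± 0.23 in T40 and 0.81 ± 0.55 in T320 (SD, n = 2 each), a slope of -0.36 (SE 0.07, edgeR adjusted p = 0.0109). Both kept their call without any single adapted library. FOSL2 (-0.35, SE 0.08, edgeR adjusted p = 0.0176), UBE4B (-0.35, SE 0.08, edgeR adjusted p = 0.023) and GPR15LG (-0.29, SE 0.07, edgeR adjusted p = 0.0266) also fell. FOSL2 kept its call without any single adapted library, UBE4B lost it without T320 replicate 2 (edgeR adjusted p = 0.121), and GPR15LG lost it without 3 of the 14 in turn (0.0659 to 0.243). In NUDT2, which encodes a hydrolase of dinucleotide signals, the slope of -0.26 (SE 0.05, edgeR adjusted p = 0.0142) was not called without 7 of the 14 libraries in turn and was -0.13 without T320 replicate 2 (edgeR adjusted p = 0.328). The number of falling closed peaks was 3 without T320 replicate 2 and 22 without T320 replicate 1. Of all peaks, 1309 and 3485 fell then, against 2470 with all libraries. The number was 16 without T10 replicate 2 (2698 of all peaks) and 5 without T40 replicate 2 (2401). It was 6 without T20 replicate 1 (1888) or T160 replicate 2 (2793).

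At the top of the dose series, 1 closed peak was higher in T320 than in T160 (0.280%, background 1.52%) and 2 were lower (0.560%, background 2.34%). The higher one lay in STYXL2, a gene of a phosphatase-like muscle protein, at 7.43 ± 0.33 CPM in T320 and 2.29 ± 0.70 CPM in T160 (SD, n = 2 each; log2 change 1.69, SE 0.31, edgeR adjusted p = 0.0047). The call was lost without T160 replicate 2 (adjusted p = 0.133) or T320 replicate 2 (0.0619). The lower ones lay near NBPF26 and NBPF1, which belong to the same copy family, with log2 changes of -2.99 (SE 0.65, edgeR adjusted p = 0.0118) and -1.34 (SE 0.31, edgeR adjusted p = 0.0156). Their calls were lost without 2 of the 4 libraries in turn at NBPF26 and without 3 at NBPF1 (edgeR adjusted p of 0.0757 to 0.212). With the replicate block 4 were higher (1.12%, background 2.81%) and 4 lower (1.12%, background 3.32%). The median log2 change over the closed peaks was 0.07 with all libraries, -0.40 without T320 replicate 1 and 0.49 without T320 replicate 2. Without T160 replicate 1 it was 0.33, and without T160 replicate 2 it was -0.17. Over all peaks the medians without 1 library lay between 0.006 and 0.045.

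Between the exposed groups, 2 closed peaks were higher in P320 than in P10 (0.560%, background 4.1%) and 4 were lower (1.12%, background 9.68%). The shares are under those of all peaks, and the limit of the rule keeps both groups near or above C. The STYXL2 peak averaged 49.8 ± 2.09 CPM in P320 and 22.9 ± 1.66 CPM in P10, with 23.6 ± 5.35 CPM in C (SD, n = 2 each), a log2 change of 1.22 (SE 0.25, edgeR adjusted p = 0.00292) that was called without any of the 4 libraries in turn. In the adapted populations the same peak was higher in T320 than in T160 and lower in T10 than in T5 (1.67 ± 0.33 CPM in T10 and 4.45 ± 0.45 CPM in T5, SD, n = 2 each), and its dose trend was not called. With the 5 Mb window offset its T10 against T5 call was lost (log2 change -0.83). One in ATAD2B, a bromodomain gene, averaged 16.1 ± 1.14 CPM in P320 and 7.60 ± 0.35 CPM in P10 (1.17, SE 0.41, edgeR adjusted p = 0.048).

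The 4 closed peaks lower in P320 stood above C in P10, as the rule's limit for P320 and the minimum of 1 log2 unit together require. The peak in KCNC4, a voltage-gated potassium channel gene, averaged 3.80 ± 0.04 CPM in P320 and 14.1 ± 1.79 CPM in P10, with 4.63 ± 2.80 CPM in C (SD, n = 2 each; log2 change -1.80, SE 0.45, edgeR adjusted p = 0.00903). OLFM1, an olfactomedin gene 8822 bp from its peak, averaged 9.84 ± 1.63 CPM in P320 and 30.8 ± 2.70 CPM in P10, with 12.4 ± 0.32 CPM in C (SD, n = 2 each; -1.55, SE 0.45, edgeR adjusted p = 0.0223). PKP1, which encodes the desmosome protein plakophilin 1, averaged 22.3 ± 0.16 CPM in P320 and 53.3 ± 2.17 CPM in P10, with 25.5 ± 7.14 CPM in C (SD, n = 2 each; -1.16, SE 0.34, edgeR adjusted p = 0.0234). The OR1L6 peak, at 24.4 ± 3.90 CPM in P320 and 54.4 ± 1.05 CPM in P10, followed the same order (-1.07, SE 0.33, edgeR adjusted p = 0.0283). With 1 library left out, 1 peak was called higher in each case and 0 or 1 lower; ATAD2B, OLFM1, PKP1 and OR1L6 lost their calls without any one of the 4 (edgeR adjusted p of 0.083 to 0.213) and KCNC4 without 3 of them.

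**Figure D5:**
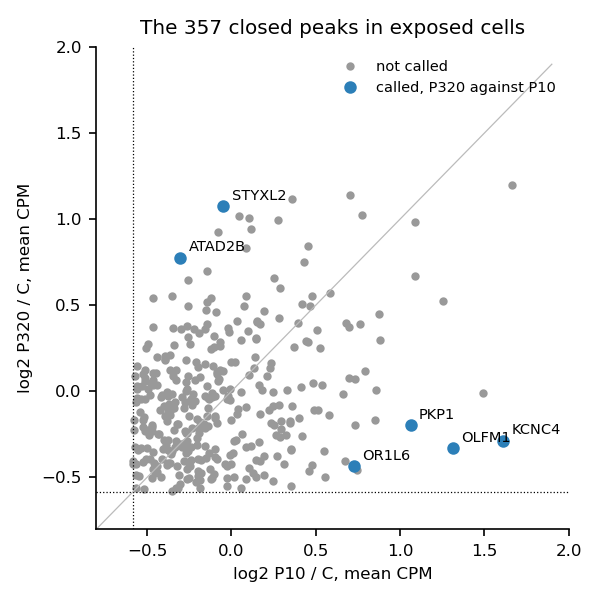
Log2 ratio of the mean CPM to C in P10 (x axis) and P320 (y axis) for the 357 closed peaks, one point each; dotted lines mark the lower limit of the rule, the thin line equal ratios, and blue points the 6 peaks called between P320 and P10. STYXL2 and ATAD2B lie above the line of equal ratios, and KCNC4, OLFM1, PKP1 and OR1L6 below it. The P10 ratios of the latter are above 0, which the rule and the call together require.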

How the data were processed

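The authors deposited 1 table of counts per consensus peak for 20 libraries; its values are whole numbers with no normalization, which the labels describe as read counts. The counting unit (reads or fragments) and the treatment of duplicates are not given in the sources used here. The submitters' processing notes name, with no roles, Bowtie2, MACS2, DESeq2, SAMtools, Picard and Trim Galore, besides deepTools 3.1 and 3.5.1, HOMER 4.1 and the build GRCh38. Peak starts are given as in the table, which does not say whether they count from 0.

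From the counts, CPM per library and group means over 2 libraries were computed. The peaks, gene lists, motifs and comparisons were chosen with earlier results of these data known. Comparisons used edgeR 4.0.16 (TMM scaling, robust quasi-likelihood, all 10 groups in 1 fit, adjusted over 105048 peaks; filterByExpr removed none), with DESeq2 1.42.0 as an alternative. The fits were tested on simulated data. Peaks were placed with RefSeq starts and, for 4161 of 19974 genes without a start in the table, with either gene end. Peaks named in the text are the 10 strongest in C, the 10 most closed, those at gene starts or unassigned gene ends or in the densest groups, up to 2 per gene list, up to 3 called peaks per comparison and direction, and those at the rule's limits. Deviations of same-numbered libraries from their group means correlated at 0.19 to 0.60 in all 28 pairs among C and the adapted populations, and at -0.11 to 0.0015 in the 17 pairs with P10 or P320; the labels give no reason, and replicate 1 is the shallower one in the first set. Alternatives were other scalings, filters, limits, a 5 Mb window offset, a replicate block and leaving out each library. The adapted libraries held 9627970 to 28547221 counts, with a median of 34 counts per closed peak and library, so counting error is part of the spread.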

Additional observations from a re-analysis of the deposited data

How the results depend on the processing

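The number of closed peaks depended on the limits of the rule: 933 with the highest adapted mean at most C/2, 160 at C/3, 184 with a narrower exposure limit and 700 with one at C/2. It was 376 to 423 with TMM or DESeq2 scaling or the window offset and 248 to 429 with 1 library left out. Of the peaks chosen on replicate 1, 255 met the rule in replicate 2 at C/2, against 87 at C/2.5. The counts of called closed peaks were all small and moved by more than 1.5 times under several settings. Calls over all peaks moved with the settings too, so the counts below are not shares. In T10 against T5, 2002 of all peaks were lost with DESeq2, against 1259 in the setting reported. In T320 against T160, 2431 of all peaks were gained with no fold minimum and 2282 with DESeq2, against 1600 in the setting reported. The window offset gave 1108 there. Leaving out a library keeps a single library in its group. Calls over all peaks moved then as well, so no change in share is read from the leave-out counts. In P320 against P10, 8280 of all peaks were gained with no fold minimum and 3184 with total-count scaling, against 4303 in the setting reported. In P320 against P10, 5 were gained with no fold minimum, 1 with total-count scaling and 1 without any 1 library; 0 to 1 were lost with 1 library left out. In T10 against T5, 14 were lost with DESeq2 and 1 to 13 with 1 library left out. In T320 against T160, 2 were gained with no fold minimum, the window offset or DESeq2, 3 among members chosen on TMM-scaled CPM, and 0 to 2 with 1 library left out, and 0 to 9 were lost then. Along the dose, 3 to 22 fell with 1 library left out, and 0 rose; without a filter, the setting reported, the count is 10. Of the named calls, that of ATAD2B was lost with total-count scaling (log2 change 1.08, edgeR adjusted p = 0.101), and no named change reversed under any setting run. The share of closed peaks on chromosome 1 was 28.8% to 36.7% with 1 library left out. The OR1L6 call in P320 against P10 was also lost with the window offset. With a replicate block, 5 were gained (1.40%) and 6 lost (1.68%) in P320 against P10, against 5522 gained and 12454 lost of all 105048 peaks. In pairs with P10 or P320 the deviations of same-numbered libraries correlated at 0.0015 at most, which gives no ground for a block there. With the block 20 were lost in T10 against T5, and 4 gained and 4 lost in T320 against T160, with their backgrounds given above. No block was fitted to the trend, which has 1 value per population. The share measures and filterByExpr for the trend were added after seeing the data. No group has enough libraries for a check of single outlying values. Levels near 1 CPM in the adapted libraries rest on few counts, which limits any order among the adapted populations.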
